A study of Mus musculus with 10 samples.

Results

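A set of 8 mature microRNA arms known from stromal and endothelial cells was followed in small RNA libraries of mouse splenic B-cells, namely mmu-miR-143-3p, mmu-miR-145a-5p, mmu-miR-145a-3p, mmu-miR-199a-3p, mmu-miR-199a-5p, mmu-miR-214-3p, mmu-miR-126a-3p and mmu-miR-126a-5p (written without the species prefix from here on). They were taken from the count table by name, and earlier results of these data were known when they were chosen. They are 8 of 2015 rows of the microRNA class (1302 mature arms and 713 hairpin transcripts) among 6968 small RNA features. The first 6 are called stromal and the other 2 endothelial. The cells were CD43- splenic B-cells of wt mice, of 3'RR-deficient mice, which lack the super-enhancer at the 3' end of the immunoglobulin heavy chain (IgH) locus, and of Eµ-deficient mice, which lack the intronic IgH enhancer (EµMAR-deficient in the study's methods). Both deletions are germline and are thus carried by every cell type of the spleen. The study's methods place all genotypes on one shared inbred background. The mice were 8 to 12 weeks old and of both sexes, as stated there for the cell cultures. Per the labels, cells were kept for 2 days in growth medium alone (NS, non-stimulated) or with 5 µg/ml of lipopolysaccharide (LPS, a bacterial product that activates B-cells). The protocol text gives the same figure in mg/ml. The study's methods for its companion RNA-seq instead speak of cells before and after stimulation. If the NS cells of the small RNA libraries were not cultured, LPS and culture cannot be told apart in any comparison of LPS with NS. The wt and 3'RR-deficient groups held 2 libraries per condition and the Eµ-deficient group held 1, and per the labels each library pooled the cells of 2 mice. Separate pools of mice are described for the companion RNA-seq. For the small RNA libraries no source used here states separate pools or cultures, so p-values measure only the spread between these libraries, which may be technical.

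MicroRNAs are short RNAs cut as 2 arms (5p and 3p) from a hairpin precursor. They repress messenger RNAs through their seed, bases 2 to 8 from the 5′ end. The miR-143 and miR-145a hairpins lie next to each other and are best known from smooth muscle and fibroblasts. The miR-199a-2 and miR-214 hairpins are carried by one long non-coding transcript, Dnm3os, of mesenchymal cells. The miR-126a hairpin lies within Egfl7, a gene of endothelial cells, and miR-126a-3p is widely used as an endothelial marker, although platelets and haematopoietic progenitors also hold it. None of the 3 groups is a standard marker of mature B-cells, and the spleen contains a reticular stroma and many vessels.

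Mature sequences are shown for the 4 of 8 members found in the RefSeq annotation of GRCm38.p6, together with miR-199b-3p, whose reads bear on miR-199a-3p. They are written 5′ to 3′ with the seed in capitals.
miR-199a-3p: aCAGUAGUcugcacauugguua
miR-199b-3p: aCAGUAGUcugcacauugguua
miR-199a-5p: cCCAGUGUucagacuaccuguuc
miR-214-3p: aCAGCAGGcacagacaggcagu
miR-126a-3p: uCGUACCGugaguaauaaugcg
The 4 members shown have 4 different seeds, and miR-199a-3p and miR-199b-3p have the same mature sequence.

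That sequence arises from 3 hairpins. They are shown because reads of the shared arm cannot be assigned to 1 of them, with the mature arms named above in capitals.
Mir199a-1 hairpin: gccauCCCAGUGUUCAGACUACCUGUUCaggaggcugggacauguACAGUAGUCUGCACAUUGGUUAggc
Mir199a-2 hairpin: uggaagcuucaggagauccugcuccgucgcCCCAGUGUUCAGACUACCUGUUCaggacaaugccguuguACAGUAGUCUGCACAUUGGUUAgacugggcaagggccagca
Mir199b hairpin: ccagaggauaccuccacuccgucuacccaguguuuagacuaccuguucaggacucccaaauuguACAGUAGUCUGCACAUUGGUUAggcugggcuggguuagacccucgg
The table lists miR-199a-3p with exactly 2 times the count of miR-199b-3p in 10 of 10 libraries (2618 against 1309 counts in all). Every count of miR-199a-5p was even. The counts of the 3p rows thus stood in the ratio of the number of hairpins of each name, and reads of the shared 3p arm cannot be assigned to one of the 3 hairpins here. The 5p arm of Mir199b has a row of its own.

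In the coordinates of the table (GRCm38), miR-143-3p lies at chr18:61649199-61649219, miR-145a-5p at chr18:61647866-61647888 and miR-145a-3p at chr18:61647827-61647848, all on the minus strand and within no other annotated gene. The Mir199a-1 hairpin lies in an intron of Dnm2, on the opposite strand, with its 5p arm at chr9:21496537-21496559 and its 3p arm at chr9:21496498-21496519 (minus strand). Mir199a-2 has these arms at chr1:162217844-162217866 and chr1:162217883-162217904 (plus strand), and miR-214-3p follows at chr1:162223438-162223459 (plus strand). Both lie in an exon of Dnm3os, within an intron of Dnm3 on the opposite strand. The arms of miR-126a lie at chr2:26591365-26591385 (5p) and chr2:26591402-26591423 (3p), plus strand, in an annotated exon of Egfl7 and an intron of Gm20532. Mir199b has its 3p arm at chr2:32318524-32318545 (plus strand).

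Libraries held 3482540.0 to 18144016 counts, of which 51.4% to 82.1% were in the microRNA class. The 8 arms were minor species: the 6 stromal arms summed to 125 to 11150.0 counts per library and the 2 endothelial arms to 76 to 1256. All 8 passed the filter on low counts in the fits of 8 libraries (wt and 3'RR-deficient, 720 features tested) and of 10 libraries (988 tested). In the fit of 8 libraries miR-145a-5p, miR-145a-3p, miR-199a-5p and miR-214-3p passed only through the NS libraries, where they are high, since at most 1 of 4 LPS libraries reached the minimum. Levels are given in CPM, that is, counts of the microRNA class scaled by TMM to a common library size, and 3 counts correspond to 0.263 to 0.999 CPM. Replicates differed far beyond counting error, and the biological coefficient of variation was 69.7% to 79.0%. In the second NS library of both wt and 3'RR-deficient mice, arms rich in G and C stood higher against the first, by 0.97 and 0.76 log2 units per 10% GC over 607 mature arms, whereas the LPS replicates gave -0.24 and -0.20. Ligation and PCR act unequally on different small RNAs, so levels are compared between libraries rather than between arms. The members range from 36.4% GC (miR-145a-3p) to 59.1% GC (miR-214-3p). As a check of the culture labels, miR-155-5p, known to rise upon B-cell activation, was 2.76 log2 units higher with LPS (SE 0.44, adjusted p 0.00261, edgeR). The B lymphocyte markers summed to 87970.0 to 255700.0 CPM, but were uneven between NS replicates. Of these, miR-142a-5p stood at 177500 and 7357 CPM in wt NS and at 84930 and 6191 CPM in 3'RR-deficient NS libraries. By contrast, miR-150-5p and miR-181a-5p were higher in the second NS library of both genotypes.

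**Figure D1:**
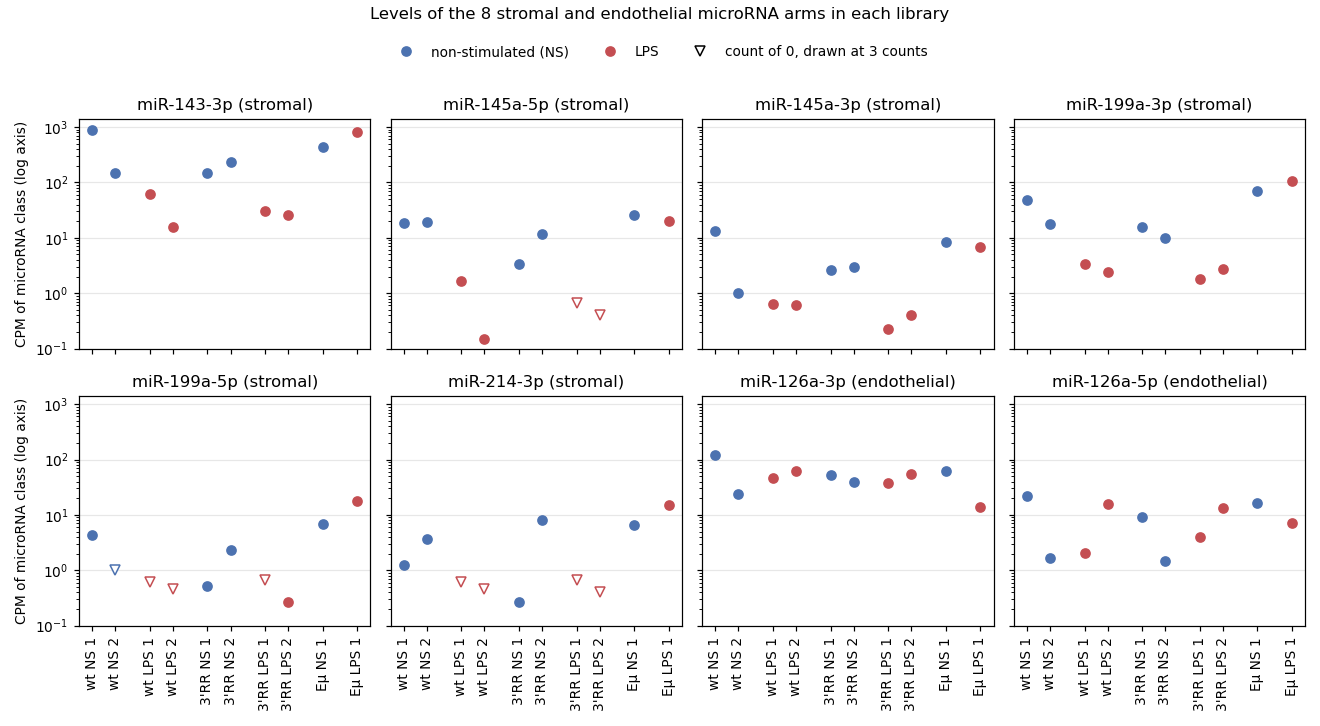
Level of each arm (CPM of the microRNA class, log axis) in each of the 10 libraries, 1 point per library, with NS in blue and LPS in red. Open triangles mark a count of 0 and are drawn at the CPM of 3 counts. In 4 of the 6 stromal panels all red wt and 3'RR points lie below all blue wt and 3'RR points, the exceptions being miR-199a-5p and miR-214-3p with their open triangles, and in all 6 the Eµ LPS point lies above all other red points, while the miR-126a-3p panel has the Eµ LPS point lowest.

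In the fit over both genotypes, 5 of the 6 stromal arms were called lower with LPS, whereas miR-199a-5p and the 2 endothelial arms were not called. Thus 5 of the 8 members passed the threshold (adjusted p under 0.05, edgeR quasi-likelihood test), and all 5 were lower with LPS and stromal. Of these, miR-143-3p and miR-199a-3p would have passed the filter without their NS libraries, and the other 3 would not, so the count is no independent support for a direction. In the same test 8.61% of all 720 features were called lower, 13.2% higher and 21.8% in either direction. The median log2 fold change was -3.23 over the 8 members (-3.10 with miR-214-3p at its bound) and 0.07 over all features tested. This median is partly set by the filter, which miR-145a-5p, miR-145a-3p, miR-199a-5p and miR-214-3p passed only through NS libraries. It is thus no independent support either. Without wt LPS replicate 1, wt LPS replicate 2 or 3'RR-deficient LPS replicate 2 the number of called members was 3, against 8.62%, 9.24% and 10.9% of all features. For 5 of 8 members every LPS library lay below every NS library, against 12.9% of all features. Of these 5, miR-145a-5p, miR-145a-3p and miR-214-3p (0 counts against 2 to 27) passed the filter only through NS libraries, so nothing is read from this count. Because these are bulk samples, fewer cells of a type and less RNA per cell cannot be told apart.

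In the stromal group, miR-143-3p is the arm that represents the miR-143 hairpin in most tissues. Without LPS it stood at 894 and 148 CPM in wt and at 149.7 and 236 CPM in 3'RR-deficient cells. The LPS libraries stood at 62.7 and 15.7 CPM in wt and at 30.3 and 26.3 CPM in 3'RR-deficient cells. The 4 LPS libraries lay below the 4 NS libraries, and the NS group of wt was the most dispersed, with a mean of 521 CPM ± 527 (SD, n = 2). The fitted change with LPS was -3.18 log2 units (SE 0.67, edgeR adjusted p 0.00880).

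The neighbouring miR-145a-5p, the main arm of its hairpin and known for its role in smooth muscle differentiation, was rarer. It was measured at 18.9 and 19.3 CPM in wt and at 3.43 and 11.8 CPM in 3'RR-deficient NS libraries. The wt LPS libraries had 1.67 and 0.151 CPM, from 8 and 1 counts, and both 3'RR-deficient LPS libraries had 0 counts. Again no LPS library reached an NS library, and the fitted change was -5.30 log2 units (SE 1.05, edgeR adjusted p 0.00718). In 3'RR-deficient cells alone the level was at least 14.3-fold lower with LPS, taking 3 counts in each library as the floor, and at least 6.42-fold without 3'RR-deficient NS replicate 2.

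The other arm of that hairpin, miR-145a-3p, had 120 and 3 counts in wt and 20 and 10 counts in 3'RR-deficient NS libraries (13.5, 0.999, 2.64 and 2.96 CPM). With LPS it had 3 and 4 counts in wt and 1 and 3 counts in 3'RR-deficient libraries, or 0.221 to 0.625 CPM. The groups did not overlap, but the margin was narrow in wt, where the second NS library had 3 counts. The fitted change was -3.28 log2 units (SE 0.92, edgeR adjusted p 0.0303). This call was lost when any of 5 libraries was left out: the adjusted p was 0.236 without wt NS replicate 1 (log2 fold change -2.41), 0.0791 and 0.0869 without wt LPS replicate 1 or 2, and 0.0688 and 0.0735 without 3'RR-deficient LPS replicate 1 or 2.

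The mesenchymal miR-199a-3p, whose sequence is printed above and is shared by 3 hairpins, had the smallest p of the 8 members. Its NS levels were 48.3 and 18.0 CPM in wt and 15.9 and 10.1 CPM in 3'RR-deficient cells. Its LPS levels were 3.33 and 2.41 CPM in wt and 1.77 and 2.71 CPM in 3'RR-deficient cells. The LPS libraries were close to each other and all below the NS libraries, and the fitted change was -3.02 log2 units (SE 0.55, edgeR adjusted p 0.00497).

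The opposite arm, miR-199a-5p, was close to the limit of detection. It had 38 and 0 counts in wt NS and 4 and 8 counts in 3'RR-deficient NS libraries. With LPS it had 0 counts in both wt libraries and 0 and 2 counts in the 3'RR-deficient ones. The groups overlapped at 0 and the arm was not called (log2 fold change -4.30, SE 1.66, adjusted p 0.0875, edgeR). Because each read of this arm seems to have been counted 2 times, counts were divided by 2 for intervals and bounds. The single read with LPS then stood against 25 without, a ratio of 0.0392 with a 95% counting interval of 9.5e-04 to 0.239. The arm was called with DESeq2 (adjusted p 0.0466).

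The last stromal member, miR-214-3p, shares the Dnm3os transcript with miR-199a-2. It had 11 and 11 counts in wt NS (1.23 and 3.66 CPM) and 2 and 27 counts in 3'RR-deficient NS libraries (0.264 and 7.99 CPM). All 4 LPS libraries had 0 counts, so the level was at least 6.13-fold lower with LPS (adjusted p 0.0310, edgeR), and at least 3.21-fold without 3'RR-deficient NS replicate 2. The arm passed the filter only through NS libraries, and the row of its hairpin transcript had 7 counts in wt LPS replicate 2 and 0 in the other 3 LPS libraries. The NS values themselves differed between replicates in 3'RR-deficient cells, and this arm has the highest GC content of the 8. The call was lost without wt NS replicate 2 (adjusted p 0.0521), 3'RR-deficient NS replicate 2 (0.0830), wt LPS replicate 1 or 2 (0.0533 and 0.0676) or 3'RR-deficient LPS replicate 2 (0.0576), and in the additive fit of all 10 libraries (0.0616).

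The endothelial miR-126a-3p was not called. Its NS levels were 119 and 23.6 CPM in wt and 52.0 and 39.7 CPM in 3'RR-deficient cells, and its LPS levels were 45.6 and 62.6 CPM in wt and 36.9 and 55.0 CPM in 3'RR-deficient cells. The LPS libraries lay within the range of the NS libraries. The fitted change was -0.19 log2 units (SE 0.49, edgeR adjusted p 0.802), and it was 0.23 without wt NS replicate 1, the highest library.

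For miR-126a-5p, the less abundant arm of the same hairpin, the NS levels were 22.3 and 1.67 CPM in wt and 9.11 and 1.48 CPM in 3'RR-deficient cells. With LPS they were 2.08 and 16.0 CPM in wt and 3.98 and 13.6 CPM in 3'RR-deficient cells. The second library was the lower without LPS and the higher with LPS, in both genotypes, so the replicate difference exceeded any difference between conditions. The fitted change was 0.08 log2 units (SE 0.88, edgeR adjusted p 0.945), and its sign was not stable: it was -0.55 after removal of a GC trend and -0.83 without both second NS libraries, uncalled in both.

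Within a single genotype the same test made no call among the members. In wt 0 of 8 members were called, against 0.694% of all features, and 6 members (all stromal) had an unadjusted p under 0.05, as did 156 of 720 features. In 3'RR-deficient cells 0 of 8 were called, against 0.972%, with 4 members and 139 features at an unadjusted p under 0.05. The mean of miR-143-3p was 13.3-fold lower with LPS in wt (log2 fold change -3.56, SE 1.01, adjusted p 0.0906, edgeR) and 6.81-fold lower in 3'RR-deficient cells (-2.80, SE 0.98, adjusted p 0.168). The wt value rested on single libraries: it was 3.77-fold without NS replicate 1, 22.8-fold without NS replicate 2, 33.2-fold without LPS replicate 1 and 8.30-fold without LPS replicate 2. The order of the genotypes thus turned without wt NS replicate 1. For miR-199a-3p the corresponding means were 11.5-fold and 5.78-fold lower, and the wt value was 6.26-fold without NS replicate 1. DESeq2 called 3 members in wt (13.6% of all features) and 4 in 3'RR-deficient cells (12.5%). Leaving out 3'RR-deficient NS replicate 1 gave 3 called members in each genotype (9.15% and 7.99% of features), and 3'RR-deficient NS replicate 2 gave 2 in wt (4.04%). Leaving out wt NS replicate 1 or 2 gave 1 in 3'RR-deficient cells (4.92% and 2.41%). The difference between both LPS responses gave 0 calls among the members and 0% among all features, with 0 members and 5 features at an unadjusted p under 0.05. The difference was 0.76 for miR-143-3p (SE 1.29) and 0.83 for miR-199a-3p (SE 1.12) on the log2 scale.

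**Figure D2:**
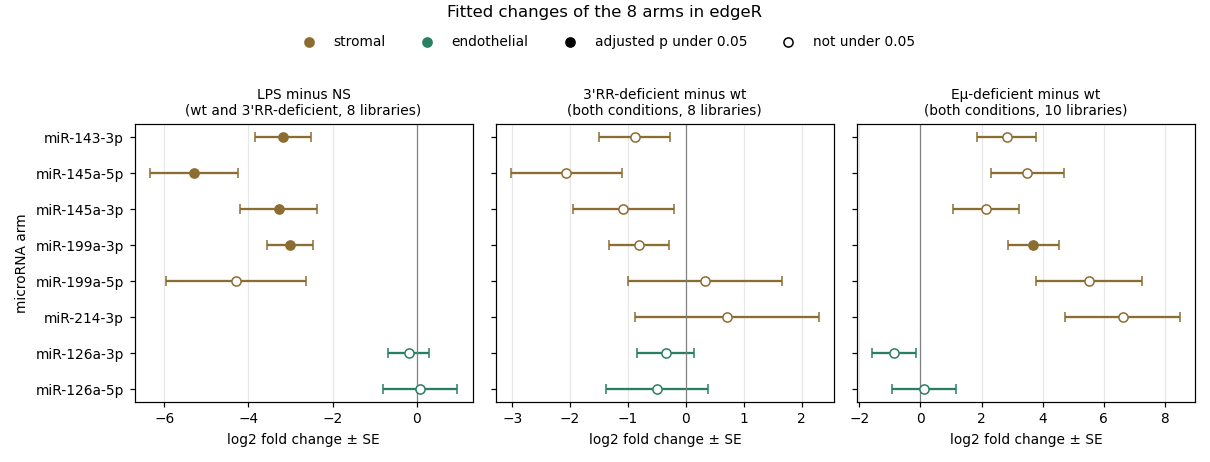
Fitted log2 fold change of each arm with its standard error (edgeR) for LPS against NS in wt and 3'RR-deficient cells, 3'RR-deficient against wt, and Eµ-deficient against wt. Filled points had an adjusted p under 0.05, and each panel has its own horizontal scale. The stromal arms lie near -3 or lower in the left panel and the endothelial arms near 0. The left panel leaves out miR-214-3p, because all its LPS libraries had 0 counts.

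Whether the stromal and the endothelial arms differed in their response was asked with the ratio of 2 members within a library, which does not depend on scaling. The log2 ratio of miR-126a-3p to miR-143-3p was -2.91 and -2.64 in wt NS, -1.52 and -2.57 in 3'RR-deficient NS and -2.79 in Eµ-deficient NS libraries. With LPS it was -0.46 and 2.00 in wt, 0.28 and 1.06 in 3'RR-deficient and -5.87 in Eµ-deficient cells. The endothelial arm thus gained on the stromal arm in wt (by 3.54) and in 3'RR-deficient cells (by 2.72) and changed by -3.08 in Eµ-deficient cells. Over all 10 libraries the difference was 1.89 and did not pass an exact two-sided permutation test within genotype (p = 0.194, and 0.233 adjusted over the 12 endothelial and stromal pairs; the smallest possible p was 0.0278). Over the 8 wt and 3'RR-deficient libraries it was 3.13 with p = 0.0556, the smallest that the 36 arrangements of this exact test allow, so that it could not go below 0.05. Without the Eµ-deficient LPS library the difference was 3.21. The lone Eµ-deficient NS library cannot be permuted there and stays in the NS mean. Mirrored arrangements then differ in size, so the test is no longer two-sided and no p is read from it. All 12 pairs had a positive difference over 10 libraries (1.65 to 4.63) and over 8 libraries (2.68 to 5.99). In the Eµ-deficient cells 12 of 12 were negative (-3.59 to -0.84). In 8 of the 12 pairs every LPS ratio lay above every NS ratio over the 8 libraries. The pairs share arms and hairpins and are not separate observations, so nothing is read from their number. Sizes for arms at 0 counts with LPS rest on the 0.5 added to each count and are no bounds. The arms miR-145a-5p, miR-145a-3p, miR-199a-5p and miR-214-3p passed the filter only through NS libraries.

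As a share of all microRNA counts, given as CPM without TMM scaling, the 6 stromal arms amounted to 705 and 256 in wt NS, 135 and 361 in 3'RR-deficient NS and 660.4 in Eµ-deficient NS libraries. With LPS they amounted to 79.1 and 15.0 in wt, 33.9 and 20.8 in 3'RR-deficient and 1195 in Eµ-deficient cells. The sum of the 2 endothelial arms spanned a narrower range, 34.1 to 101 without LPS and 25.5 to 62.5 with LPS. As a ratio of counts, stromal to endothelial arms stood between 2.82 and 7.50 in all 5 NS libraries, between 0.239 and 1.43 in the 4 LPS libraries of wt and 3'RR-deficient cells, and at 46.8 in the Eµ-deficient LPS library. The sums are dominated by miR-143-3p and miR-126a-3p.

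**Figure D3:**
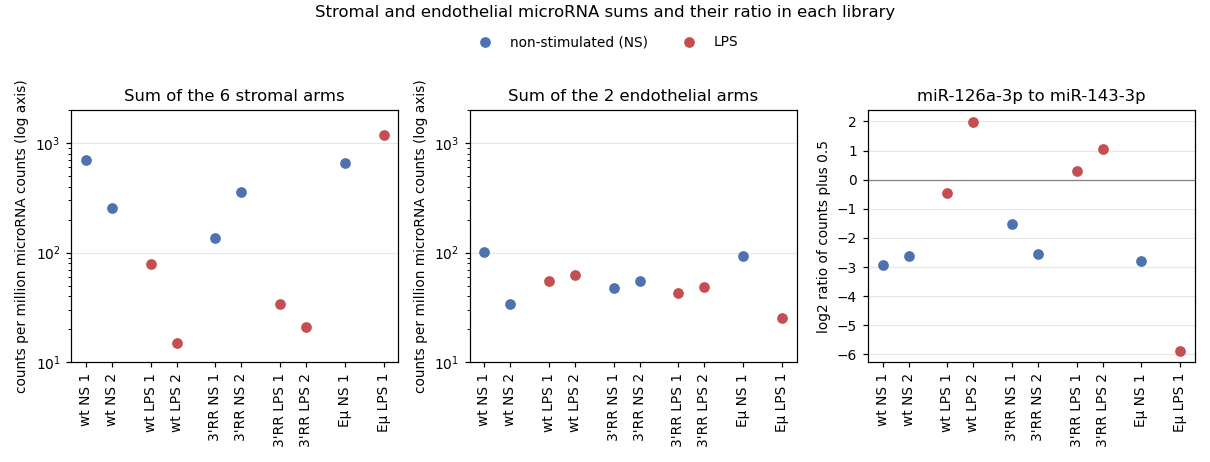
Sum of the 6 stromal arms and sum of the 2 endothelial arms (CPM of microRNA counts without TMM scaling, log axes of equal range) and the log2 ratio of miR-126a-3p to miR-143-3p in each library, 1 point per library. The stromal sum reaches from 15.0 to 1195 and the endothelial sum from 25.5 to 101. The Eµ LPS point is the highest stromal sum, the lowest endothelial sum and the lowest log2 ratio, at -5.87.

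Loss of the 3'RR was compared with wt in the same fits. Of the 8 members, 0 were called without LPS (0% of all features called), 0 with LPS (0%) and 0 over both conditions (0.139%). At an unadjusted p under 0.05 these comparisons had 0, 1 and 0 members and 9, 15 and 21 features of 720, and DESeq2 called 0 members in each. The 1 member was miR-145a-5p with LPS, which had 0 and 0 counts in 3'RR-deficient against 8 and 1 in wt libraries, at least 1.70-fold lower. Without wt LPS replicate 1 both groups were under the floor. Over both conditions the log2 fold change was -0.89 for miR-143-3p (SE 0.62), -2.06 for miR-145a-5p (SE 0.96), -0.81 for miR-199a-3p (SE 0.52) and -0.35 for miR-126a-3p (SE 0.49), each with an adjusted p of 0.997 in edgeR. The replicates disagreed in sign for miR-143-3p: the log2 ratio of a 3'RR-deficient library to the wt library of the same number was -2.58 and 0.67 without LPS and -1.04 and 0.74 with LPS. The SEs of the 8 members ran from 0.49 to 1.59 log2 units, so an absent call does not show equal levels.

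Of the stromal arms, miR-199a-3p alone was called between Eµ-deficient and wt cells. Over both conditions, in the additive fit of 10 libraries, 1 of 8 members was called against wt, miR-199a-3p, which was higher (log2 fold change 3.70, SE 0.83, adjusted p 0.0318, edgeR). The Eµ-deficient libraries stand apart in composition: 60.2% (NS) and 51.4% (LPS) of their counts were in the microRNA class, the lowest shares of the 10 libraries, and the LPS library was the deepest. The part of this in the result was not tested. Among all 988 features 1.42% were called higher, 0.202% lower and 1.62% in either direction. The median log2 fold change was 3.16 over the members and -0.17 over all features. This comparison and the one above share the wt libraries. The call was lost without wt LPS replicate 1 (adjusted p 0.223) or 2 (0.101), 3'RR-deficient NS replicate 1 (0.0902), 3'RR-deficient LPS replicate 1 (0.0661) or the Eµ-deficient LPS library (0.664, with a log2 fold change of 1.58).

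The other members in that comparison were not called. The log2 fold changes were 2.82 for miR-143-3p (adjusted p 0.199), 3.50 for miR-145a-5p (0.199), 2.14 for miR-145a-3p (0.489), 5.51 for miR-199a-5p (0.141) and 6.61 for miR-214-3p (0.0908), all in edgeR. The endothelial arms gave -0.86 for miR-126a-3p (0.702) and 0.11 for miR-126a-5p (0.971). The stromal values rested on the LPS library: without it they were 0.27 for miR-143-3p, 0.28 for miR-145a-5p, 0.60 for miR-145a-3p, 2.29 for miR-199a-5p and 1.70 for miR-214-3p. Without the other libraries in turn the highest values were 4.05, 4.94, 3.42, 9.56 and 9.996. For miR-199a-5p and miR-214-3p such sizes rest on wt libraries at 0 counts, so they are neither measured changes nor bounds. Of these 8 tests, 5 had an unadjusted p under 0.05, as did 113 of 988 features, and DESeq2 called 4 members (5.57% of features). The count of called members was 3 without wt NS replicate 1 (3.36%), where miR-143-3p had an adjusted p of 0.0154, and 2 without the Eµ-deficient NS library (1.55%), where miR-214-3p had 0.0474.

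For the stromal arms, the Eµ-deficient library stood nearer to the wt mean without LPS than with LPS. Without LPS the Eµ-deficient library had 438 CPM of miR-143-3p, between both wt libraries, and 70.8 CPM of miR-199a-3p, above the 48.3 and 18.0 CPM of wt. With LPS it had 807 CPM of miR-143-3p, 20.6 times the wt LPS mean (51.5 or 12.9 times without wt LPS replicate 1 or 2), and 108 CPM of miR-199a-3p, 37.7 times that mean. The highest of the other 4 LPS libraries had 62.7 and 3.33 CPM. The Eµ-deficient LPS library also had 20.2 CPM of miR-145a-5p and 6.83 CPM of miR-145a-3p, 22.3 and 11.1 times the wt LPS mean, from 231 and 78 counts. The first of these was 134 or 12.1 times without wt LPS replicate 1 or 2. For miR-199a-5p it had 206 counts (18.0 CPM) and for miR-214-3p 176 counts (15.4 CPM), where both wt LPS libraries had 0, so that these arms were at least 16.7-fold (counts divided by 2) and 28.6-fold higher. The endothelial miR-126a-3p went the other way, with 13.7 CPM in the Eµ-deficient LPS library, the lowest of all 10 libraries and 3.94 times below the wt LPS mean. For miR-126a-5p it had 7.09 CPM, between both wt LPS libraries.

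The 6 stromal members of the 8 were above the other 4 LPS libraries in the Eµ-deficient LPS library, against 27.4% of all features. The same 6 reached at least 5 times the wt LPS mean, against 14.9% of features, and 3 (miR-199a-3p, miR-199a-5p and miR-214-3p) were highest of all 10 libraries there, against 15.3%. A fit with a mean per group, chosen after the data were seen, gave a test within a condition by assuming that the lone Eµ-deficient library varies like the other groups. With LPS, 1 of 8 members was called against wt (miR-199a-3p, log2 fold change 5.23, SE 1.02, adjusted p 0.0287, edgeR), against 0.709% of all features. Next was miR-143-3p (4.37, SE 1.04, adjusted p 0.0613), and 6 members and 69 features had an unadjusted p under 0.05. The call of miR-199a-3p was lost without wt LPS replicate 1 (adjusted p 0.799), wt LPS replicate 2 (0.388) or the Eµ-deficient NS library (0.120), whereas leaving out 1 of the other 6 libraries left 4 or 5 members called (1.43% to 3.67% of features). Without LPS, 0 members were called (0.101% of features), and no member had an unadjusted p under 0.05, against 58 features. The LPS response within Eµ-deficient cells gave 0 calls among members and features (0%; 0 members and 65 features at an unadjusted p under 0.05). Its difference from the mean response of wt and 3'RR-deficient cells also gave 0 calls (0%), with 5 members, all stromal, and 32 features at an unadjusted p under 0.05.

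Within the Eµ-deficient libraries each arm had between 64 and 9223 counts. From NS to LPS the level went up 1.84-fold for miR-143-3p (counting interval 1.78 to 1.91), 1.53-fold for miR-199a-3p (1.34 to 1.75), 2.64-fold for miR-199a-5p (1.77 to 4.03) and 2.32-fold for miR-214-3p (1.74 to 3.14). It went to 0.787 times for miR-145a-5p (0.655 to 0.945), 0.804 times for miR-145a-3p (0.582 to 1.11), 0.218 times for miR-126a-3p (0.182 to 0.260) and 0.439 times for miR-126a-5p (0.331 to 0.577). These 95% intervals compare 2 libraries and cover counting error only, with counts divided by 2 for both arms of miR-199a. Reads amplified by PCR, with no molecular identifiers counted, are not independent molecules.

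The stromal arms moved together over libraries. Across the 10 libraries, Pearson's r between log2 CPM values was 0.702 to 0.943 for the 15 stromal pairs (median 0.866), 0.573 for both arms of miR-126a and -0.449 to 0.374 for the 12 pairs of a stromal and an endothelial arm (median -0.10). The libraries share conditions and arms of a hairpin share reads of one precursor, so these values are descriptions. Among 155 other abundant mature microRNAs (mean of at least 100 CPM and present in each library), the patterns closest to miR-143-3p were those of miR-223-3p (r = 0.839), miR-451a (0.81), miR-664-3p (0.742), miR-486b-5p and miR-486a-5p (both 0.735). The closest to miR-126a-3p were miR-1843b-5p (0.80), miR-30e-3p (0.793), miR-1843a-5p (0.783), miR-30a-3p and miR-30d-5p (both 0.771).

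Both arms of a hairpin did not keep one ratio. The count ratio of miR-126a-3p to miR-126a-5p was 5.31 and 14.2 in wt NS, 5.71 and 26.8 in 3'RR-deficient NS and 3.90 in Eµ-deficient NS libraries. With LPS it was 21.9 and 3.92 in wt, 9.28 and 4.06 in 3'RR-deficient and 1.94 in Eµ-deficient libraries. The ratio was higher in the second than in the first NS library and lower in the second than in the first LPS library, in both genotypes. The 3p arm has 45.5% GC and the 5p arm 38.1%. For miR-145a the ratio of 5p to 3p was 1.40 and 19.3 in wt NS and 1.30 and 4 in 3'RR-deficient NS libraries, again higher in the second, with 52.2% and 36.4% GC. In Eµ-deficient cells it was 3.02 and 2.96. For miR-199a (3p 40.9% GC, 5p 52.2%) the order differed between genotypes. The counts of 3p and 5p were 430 and 38 in the first and 54 and 0 in the second wt NS library, and 120 and 4 in the first and 34 and 8 in the second 3'RR-deficient NS library. The part of GC content in these ratios was not tested.

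Companions of these arms were read from a list of 14 other microRNAs of mesenchymal cells, of which 13 were in the table and 9 were tested for LPS over both genotypes. Lower with LPS were 4 (8.61% of all features), namely miR-125b-5p (log2 fold change -3.24), miR-199b-3p (-3.02, the same reads as miR-199a-3p), miR-99a-5p (-2.14) and miR-100-5p (-2.05), 1 was higher (13.2% of all features), miR-218-5p (3.59), and 4 were not called. In Eµ-deficient against wt cells over both conditions 12 were tested and 3 were higher (1.42% of all features), miR-199b-3p (3.65), miR-100-5p (3.24) and miR-99a-5p (2.59), while 9 were not called. The list summed to 771 to 2282 CPM in the 4 NS and 781 to 1222 CPM in the 4 LPS libraries of wt and 3'RR-deficient cells. It summed to 2704 and 1422 CPM in Eµ-deficient NS and LPS cells. In wt and 3'RR-deficient cells most of the sum was miR-10b-5p, at 519.5 to 1777 CPM in NS and 502.6 to 875 CPM in LPS libraries. The sum thus says little of the other companions. Of 6 other endothelial microRNAs 4 were tested: miR-139-5p was lower with LPS (-2.03, adjusted p 0.00880, edgeR) and 3 were not called. In Eµ-deficient against wt cells 0 of 4 were called, against 1.62% of all features. That list summed to 5378 to 7643 CPM in NS and 2876 to 3983 CPM in LPS libraries, and to 5111 and 4207 CPM in Eµ-deficient cells. Its miR-10a-5p ran beside miR-10b-5p of the mesenchymal list. In wt NS these stood at 2120 and 1777 CPM in replicate 1 and at 645 and 519.5 CPM in replicate 2. The sums of both lists may therefore not be separate readings, and whether these arms share reads was not tested. Neither miR-126b-3p (0 to 3 counts) nor miR-126b-5p (0 to 2 counts) was tested.

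MicroRNAs of blood cells other than lymphocytes were read beside the stromal arms. The 4 erythroid microRNAs (miR-451a, both arms of miR-144 and miR-486a-5p) summed to 2530.0 to 6670.0 CPM in the 4 NS and 167 to 1150.0 CPM in the 4 LPS libraries of wt and 3'RR-deficient cells, and to 9290.0 and 4079 CPM in Eµ-deficient NS and LPS cells. Of these 4, 1 was called lower with LPS (8.61% of all features), miR-486a-5p (log2 fold change -4.25, adjusted p 0.00497, edgeR). Both arms of miR-223, known from myeloid cells and platelets, were lower with LPS (-3.49 and -2.59, adjusted p 0.00261 and 0.00967), and their sum was 479 to 1990.0 CPM in NS and 82.4 to 146.5 CPM in LPS libraries. It was 5032 and 512 CPM in Eµ-deficient NS and LPS cells. The Eµ-deficient LPS library was thus above the other 4 LPS libraries in both sums, as it was for the stromal arms. Within Eµ-deficient cells, however, both sums were lower with LPS than without, whereas the stromal sum was higher. Of these lists 0 of 4 and 0 of 2 were called in Eµ-deficient against wt cells over both conditions, against 1.62% of all features. The 5 epithelial microRNAs gave 0 calls for LPS (21.8% of all features) and for Eµ deficiency (1.62%). Their sum was 925 to 2172 CPM in NS and 599.7 to 766 CPM in LPS libraries, and 1293 and 599 CPM in Eµ-deficient cells. The hepatocyte miR-122-5p stayed between 0 and 5.63 CPM and the sum of 2 muscle microRNAs between 0 and 2.92 CPM in every library. In the B lymphocyte list, 1 of 5 was higher with LPS (13.2% of all features), miR-155-5p. Lower were 2 (8.61% of all features), miR-150-5p (-2.45) and miR-181a-5p (-2.31). The part of other cell types in the values of the 8 members was not tested.

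**Figure D4:**
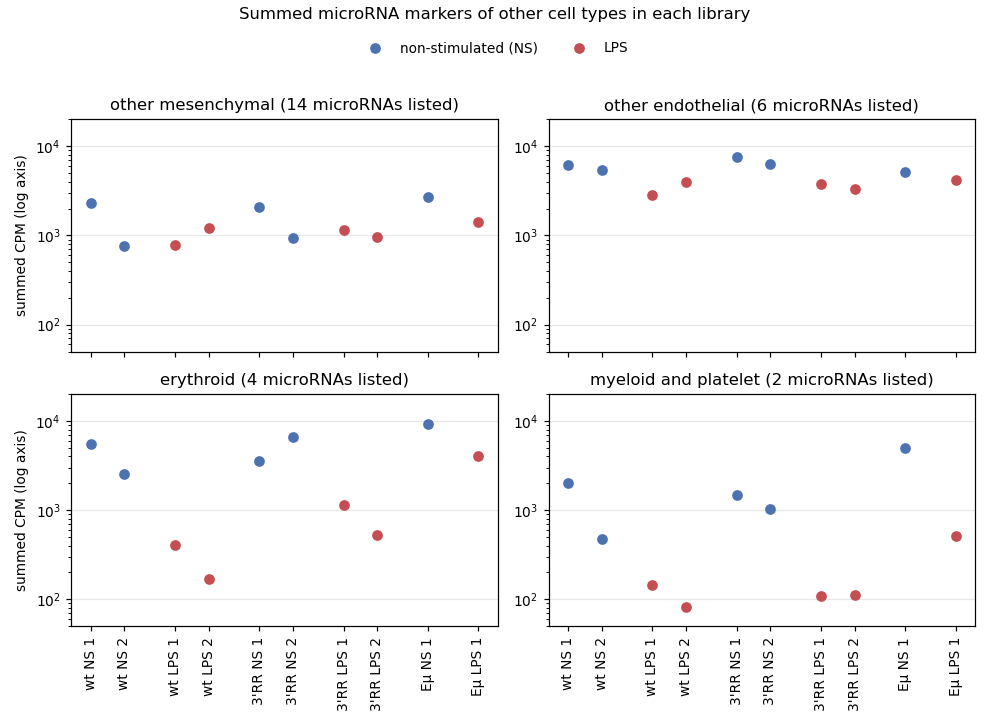
Summed CPM (log axes of equal range) of 4 lists of microRNAs of other cell types in each library, 1 point per library, with NS in blue and LPS in red. The erythroid sum (167 to 9290.0 CPM) and the myeloid and platelet sum (82.4 to 5032 CPM) have their lowest points in wt LPS replicate 2, and in both the Eµ LPS point lies above the other red points. The other mesenchymal sum of the 4 LPS libraries (781 to 1222 CPM) overlaps that of the 4 NS libraries (771 to 2282 CPM). Most of that sum was miR-10b-5p in the wt and 3'RR libraries.

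Other rows of the same hairpins were close to 0. The hairpin transcripts of Mir143, Mir145a, Mir199a-1, Mir214 and Mir126a had at most 7 counts in any library, and the highest value was the Mir214 row in wt LPS replicate 2, where miR-214-3p had 0. The passenger arms miR-143-5p and miR-214-5p each had 0 to 8 counts per library.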

How the data were processed

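Small RNA was measured in 10 libraries of CD43- splenic B-cells, made with the NextFlex kit, 17 PCR cycles and 75 nt reads. The authors deposited raw counts of reads for each small RNA feature, as whole numbers that were not normalized. The submitters' processing notes name cutadapt 1.2.1, Bowtie2 and mm10 without their roles, and the counting program and the treatment of reads with several matches are not given in the sources used here.

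Counts of the microRNA class were fitted with edgeR 4.0.16 in R 4.3.3 (TMM scaling, filterByExpr by group, two-sided quasi-likelihood F-test, Benjamini-Hochberg adjustment over all features tested, threshold 0.05). The 8 wt and 3'RR-deficient libraries were fitted with a mean per group, or with additive genotype and stimulation terms for comparisons over both genotypes or conditions. All 10 libraries entered the additive fit for Eµ. Fits of Eµ within a condition, and counts divided by the number of hairpin positions, were added after the data were seen. Ratios of 2 members used counts plus 0.5 and an exact permutation of the stimulation labels within genotype. A fold against a group at 0 is a bound with 3 counts per library as the floor. Counts of miR-199a arms, which appear to hold each read 2 times, were divided by 2 for counting intervals and bounds. Pearson's r used log2 CPM with a prior count of 2.

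All 8 members were named for LPS over both genotypes and for Eµ-deficient against wt over both conditions, whatever their result. For the other fits the counts cover all 8, but values are given for only some of them. Of the lists, members past the threshold were named, at most 4 per direction. The members and lists were chosen with earlier results of these data known. Depth ran from 3482540.0 to 18144016 counts per library, and intervals cover counting error only. Alternatives were other scalings, no filter or a filter of 10 CPM in 2 libraries, DESeq2 1.42.0, all RNA classes, mature arms alone, a loess correction for GC (span 0.75), the replicate number as a block, other sets of libraries, a pseudocount of 2 for the ratios and leaving out each library in turn. The calculations were tested on simulated data.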

Additional observations from a re-analysis of the deposited data

Results flagged for a closer look

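In 3 stromal members the LPS library lay above the NS library in Eµ-deficient cells and every LPS library lay below every NS library in wt and 3'RR-deficient cells. The fitted difference of the LPS responses, Eµ-deficient minus the mean of wt and 3'RR-deficient, was 4.13 log2 units for miR-143-3p (SE 1.45, unadjusted p 0.0103 in edgeR). For miR-199a-3p it was 3.63 (SE 1.34, unadjusted p 0.0141 in edgeR). For miR-214-3p it was 8.60 (SE 2.89, unadjusted p 0.00849 in edgeR), a size that rests on groups at 0 counts and is no bound. After adjustment over 988 features the p was 1.00 for each of the 3, so the difference did not pass, and it rests on 1 Eµ-deficient library per condition. The levels of miR-143-3p were 807 CPM with and 438 CPM without LPS in Eµ-deficient cells, against at most 62.7 CPM with and at least 148 CPM without LPS in the other genotypes. For miR-199a-3p these values were 108, 70.8, 3.33 and 10.1 CPM.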

How the results depend on the processing

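With 1 or 2 libraries per group, counts of called members moved with the settings, and for each change below the cause was not tested. Percentages in brackets are the share of all features called in the same fit. The 5 members lower with LPS over both genotypes were 3 with the filter of 10 CPM (37.3%), under which 5 members were tested, and 3 to 5 with 1 library left out. The other alternatives gave 4 to 6, beside 4.51% (all RNA classes) to 46.7% (replicate block within condition) of all features. The calls of miR-143-3p, miR-145a-5p and miR-199a-3p were kept in each alternative in which the arm was tested. Within wt the count of 0 became 3 without a filter (2.78%), with DESeq2 (13.6%) or without both second NS libraries (9.59%), 2 with the GC correction (5.77%), and 0 to 3 with 1 library left out. Within 3'RR-deficient cells it became 1 without a filter (1.72%), with the GC correction (3.79%) or in a fit of the compared groups alone (2.49%), 4 with DESeq2 (12.5%), 3 without both second NS libraries (6.07%), and 0 to 3 with 1 library left out. The comparisons of 3'RR-deficient with wt, and the difference of their LPS responses, gave 0 called members in each alternative run.

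For Eµ-deficient against wt over both conditions the count of 1 became 5 without a filter (2.41%), 4 with DESeq2 (5.57%), 2 without both second NS libraries (7.43%), and 0 to 3 with 1 library left out. With LPS alone the count of 1 became 2 with RLE scaling (0.81%), the GC correction (1.25%) or counts divided by hairpin positions (0.81%), 4 with DESeq2 (2.53%), 5 with total count scaling (2.53%), without a filter (0.973%) or without both second NS libraries (6.49%), 0 with all RNA classes (0%), and 0 to 5 with 1 library left out. The difference of LPS responses of Eµ-deficient cells gave 1 in place of 0 without both second NS libraries (0.209%). The change of the log2 ratio of miR-126a-3p to miR-143-3p was 1.24 to 3.21 with 1 library left out.

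Same-numbered libraries deviated together in only part of the pairs of groups (r = 0.662 for both NS groups and 0.113 for both LPS groups, -0.286 to -0.059 for the others, over 720 features), so the replicate numbers do not pair the samples across conditions, while the second libraries of both NS groups deviated alike. With the replicate block the counts were 1 in wt and 3 for Eµ-deficient with LPS (3.75% and 1.21% of all features called). Over both conditions of Eµ the count stayed 1 but the member changed, as miR-199a-3p had an adjusted p of 0.0572 and miR-214-3p one of 0.0406 (edgeR). With the replicate block within condition the counts were 3 in wt, 3 in 3'RR-deficient cells, 5 for Eµ-deficient over both conditions, 4 with LPS and 2 for the difference of responses. Called among all features in that fit were 25.3%, 25.4%, 10.6%, 5.16% and 0.405%. With the GC correction and the replicate block within condition the counts were 4, 4, 5, 4 and 2, beside 30.0%, 26.5%, 11.5%, 4.87% and 0.624% of all features.

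Members that were not called changed sign in several settings. For miR-126a-5p with LPS over both genotypes the log2 value was -0.95 with all RNA classes, -0.55 with the GC correction, -0.57 with the GC correction and the replicate block within condition, -0.83 without both second NS libraries and -0.13 in the fit of 10 libraries. For 3'RR-deficient against wt, miR-199a-5p gave -0.24 with all RNA classes, -0.30 without both second NS libraries and -0.18 in the fit of 10 libraries, and miR-214-3p gave -0.16 with the replicate block, -0.22 with it within condition and -0.37 with the GC correction added. For Eµ-deficient with LPS, miR-126a-5p gave 0.19 with total count scaling, 0.030 with the filter of 10 CPM, 1.39 with the replicate block within condition and 1.09 with the GC correction added. With 1 library left out, the log2 values of uncalled members that changed sign ranged as follows. For LPS over both genotypes they ranged from -0.50 to 0.23 (miR-126a-3p) and from -0.42 to 1.06 (miR-126a-5p). For 3'RR-deficient against wt they ranged from -0.31 to 1.27 (miR-199a-5p), -2.33 to 1.53 (miR-214-3p), -0.61 to 0.16 (miR-126a-3p) and -1.002 to 0.46 (miR-126a-5p). For Eµ-deficient against wt they ranged from -2.09 to 0.20 (miR-126a-3p) and -0.62 to 1.46 (miR-126a-5p), and with LPS from -1.18 to 1.97 (miR-126a-5p).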
